A study of Mus musculus with 14 samples.

Results

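The comparison described here set the H3K9cr peak lists of kidneys with unilateral ureteral obstruction (UUO) from ACSS2-/- mice against those from WT mice, with 2 libraries in each group. A member was an autosomal region, or a RefSeq gene of GRCm38, with a peak in both libraries of a single genotype and in neither library of the other. The autosomal peaks of the 4 libraries merged into 51135 regions, of which 2826 were members. A peak in both WT libraries and neither ACSS2-/- library was found at 1940 regions (3.79% of all regions), and the opposite at 886 regions (1.73%). Among 47042 autosomal genes, 341 (0.725%) had a peak within 3 kb of a gene end in the WT libraries only and 142 (0.302%) in the ACSS2-/- libraries only. These are called WT-only and ACSS2-/--only below.

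The series mapped H3K9cr and H3K9ac by ChIP-seq in whole kidneys of WT and ACSS2-/- mice, as controls or after UUO, in 14 libraries. The WT UUO group carried no engineered allele, and the ACSS2-/- UUO group carried a CRISPR/Cas9 deletion of ACSS2 in the whole body and was compared in the study with littermates. Both groups had the same obstruction and were immunoprecipitated with anti-H3K9cr, whose catalogue number in the labels differs between the groups, and its part in the results was not tested. The labels give neither the age of the mice nor the time after surgery, and they do not say that the replicates came from separate animals, so that the spread between replicates may be technical. Peak names inside the files carry the number 3 for both replicate 1 lists and 2 for both replicate 2 lists. In the H3K9ac lists they carry 1 and 2 for WT UUO and 2 and 3 for ACSS2-/- UUO, so that replicate labels do not tie H3K9ac to H3K9cr libraries. Because the deletion was not limited to a cell type, blood-borne and tubular cells of the ACSS2-/- kidneys would lack the enzyme alike. In whole kidney, fewer cells of a type and less of the mark in each cell cannot be told apart.

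Crotonylation of lysine 9 of histone H3 is an acyl mark that, like acetylation of the same residue, is found at the starts of active genes and at active distal elements. ACSS2 is an acyl-CoA synthetase that can turn short-chain fatty acids such as acetate and crotonate into the CoA donors that histone acyltransferases use. In the obstructed kidney, tubules dilate and lose transport functions while T cells, macrophages and fibroblasts accumulate, so that a peak list of the whole organ holds regions of nephron, immune and stromal cells together.

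The 2 WT libraries held 36229 and 29859 autosomal peaks and the 2 ACSS2-/- libraries 35142 and 27023. Replicate 1 of each genotype held more peaks than replicate 2, and the ranges of the 2 genotypes overlapped. The peaks covered 44.0 and 34.4 Mb in WT against 39.2 and 29.0 Mb in ACSS2-/-, a mean of 39.2 ± 6.78 Mb against 34.1 ± 7.22 Mb (SD, n = 2 each). The difference was smaller than the spread between replicates (exact permutation test, two-sided, p = 0.67), and with 2 libraries against 2 this test cannot go below 0.33. Among tubular markers, peaks at Umod, the gene of uromodulin, summed to 4020 and 4450 bp in WT and to 2655 and 3144 bp in ACSS2-/-, while other markers described below lacked a peak in some libraries. The peak lists give neither reads nor scores, so sequencing depth is unknown, and presence and length in base pairs are the measures used.

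Regions of a single genotype lay away from gene ends more often than regions marked in all 4 libraries. The median WT-only region was 795 bp long and the median ACSS2-/--only region 746.5 bp, against 786 bp for all regions and 1909 bp for the 17100 regions with a peak in all 4 libraries. Regions marked in 1 library of each genotype had medians of 691 to 797 bp, so that the length is that of regions of 2 libraries. Of the WT-only regions, 1272 (65.6%) were distal, meaning more than 3 kb from every gene end, and 839 of these lay inside a gene. Of the ACSS2-/--only regions, 609 (68.7%) were distal, and 423 of them lay inside a gene. In comparison, 54.3% of all regions and 25.8% of the regions marked in all 4 libraries were distal. The latter lower the share over all regions, and regions outside that set were distal about as often as members. Set against the 27791 distal regions, WT-only regions made up 4.58% and ACSS2-/--only regions 2.19%. Both lie above the share of all regions, where regions marked in all 4 libraries weigh more. They therefore do not show a distal excess of members.

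**Figure D1:**
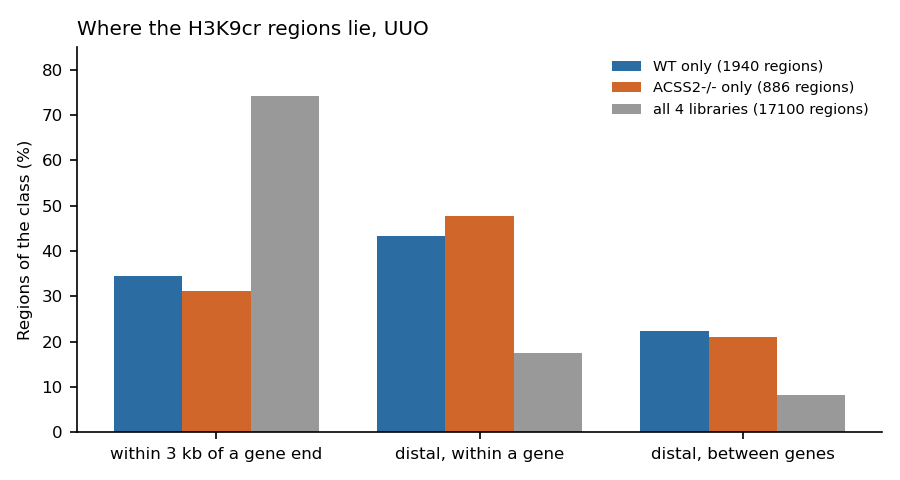
Places of the H3K9cr regions of the UUO kidneys, as the percentage of WT-only, ACSS2-/--only and all-4-library regions that lay within 3 kb of a gene end, inside a gene away from its ends, or between genes. Regions of a single genotype were distal in 65.6% and 68.7% of cases, against 25.8% of those marked in all 4 libraries.

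Many of these regions had a peak of the other genotype close by. A peak of an ACSS2-/- library lay within 1 kb of 532 WT-only regions (27.4%), and a WT peak lay within 1 kb of 303 ACSS2-/--only regions (34.2%). Members were spread over all autosomes, as WT-only regions made up 2.92% to 4.55% of the regions of a chromosome and ACSS2-/--only regions 1.38% to 2.09%. Differences between single libraries were larger than those by the rule on both replicates. Within replicate 1, 11398 regions had a WT peak only and 9410 an ACSS2-/- peak only, and within replicate 2 the counts were 9075 and 5994. Where a library was left out, presence on its side rested on the remaining library. The count of WT-only regions became 6124 without WT replicate 1, 10235 without WT replicate 2 and 4708 without ACSS2-/- replicate 1, while that of ACSS2-/--only regions became 2190, 1310 and 4199 in the same order and 8349 without ACSS2-/- replicate 2. When each library was cut to its 27023 longest peaks, 1405 WT-only and 901 ACSS2-/--only regions were counted.

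Genes of T and NK cells differed most between the genotypes among the 16 gene lists in the number marked. The lists were chosen with earlier results of these data known, so this order is a description and not a test. Of all protein-coding genes, 64.1% and 62.4% were marked in WT and 63.6% and 60.8% in ACSS2-/-. Of the 60 T and NK genes, 45 and 44 had a peak in the WT libraries and 21 and 18 in the ACSS2-/- libraries, and the 2 genotypes did not overlap. Their peaks summed to 79.7 and 78.2 kb in WT and to 29.1 and 16.8 kb in ACSS2-/-. By the rule on both replicates 12 of the 60 were WT-only and none was ACSS2-/--only, beside 0.644% and 0.295% of the 20665 protein-coding genes. With the 27023 longest peaks of each library, an alternative added after the data were seen, 42 and 41 of the 60 genes were marked in WT and 18 in each ACSS2-/- library. How many T and NK cells each kidney held was not measured in these data, and its part in the counts was not tested.

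The 3 members of this list with the longest peaks were effector or death receptor genes. Peaks at Gzmk, which encodes a granzyme of cytotoxic lymphocytes, summed to 2518 and 2604 bp in the WT libraries. Those at Fasl, the ligand that triggers death of Fas-bearing cells, summed to 2657 and 2057 bp. Peaks at Tnfrsf25, which encodes a death-domain receptor of T cells, summed to 1474 and 2912 bp. None of these genes had a peak in either ACSS2-/- library, which is what put them on the list. The chemokine genes Ccl5 and Ccl4 had 517 and 2350 bp and 2226 and 386 bp, so that each was well marked in a single WT library and weakly in the other. Tnfsf14, the gene of the TNF family ligand LIGHT, sat near the lower end, with 447 and 482 bp.

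The receptor and signalling genes on the list were Cd3e, a subunit of the T-cell receptor complex (1336 and 1821 bp in WT), Cd2, an adhesion receptor of T and NK cells (691 and 2290 bp), and the co-stimulatory receptor gene Cd28 (432 and 1217 bp). Lat, the adaptor that links the receptor to its kinases, had 886 and 1024 bp. The same holds for Il12rb2, a subunit of the IL-12 receptor, with 507 and 985 bp, and for Ikzf3, which encodes the lymphoid transcription factor Aiolos, with 637 and 446 bp. The shortest of these peaks, such as that of Cd28 in replicate 1, were not far above the shortest peaks listed in each library (307 to 318 bp), so that presence there lay near the limit of the peak calls.

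Among other genes of the list, examples with a lower sum in ACSS2-/- follow. At Cd3d, another receptor subunit, the peaks summed to 4460 and 4959 bp in WT and to 615 and 402 bp in ACSS2-/-. Those at Zap70, the kinase recruited to the engaged receptor, summed to 1404 and 1773 bp against 329 and 789 bp. At both genes the WT libraries lay above both ACSS2-/- libraries. A lower summed length in both ACSS2-/- libraries than in either WT library was found for 32 of the 52 list genes with any peak and a higher one for 0. The background was 24.9% and 8.01% of the 13939 protein-coding genes with any peak (16.8% and 5.40% of all protein-coding genes, 10.7% and 3.31% of all genes). Because the ACSS2-/- libraries covered less sequence in sum, each library was also scaled to the same total over protein-coding genes, an alternative added after the data were seen. The list then gave 31 lower and 1 higher, against a background of 14.8% and 19.8%. Only 5 regions of the list held a single peak in all 4 libraries, and of these 1 was shorter and 0 longer after centring, with a median centred log2 difference of 0.23.

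A few lymphocyte genes went another way. Lag3, an inhibitory receptor gene, had 7593 and 7260 bp in WT and 8666 and 5047 bp in ACSS2-/-, with overlapping genotypes, and its window may hold peaks of neighbouring genes. Tbx21, the gene of the T-bet transcription factor, had short peaks in every library (602, 317, 570 and 479 bp, WT first). Prf1 and Gzmb, the genes of perforin and granzyme B, had a peak in WT replicate 1 alone, of 751 and 1755 bp. Icos, Xcl1, Klrb1c, Ncr1, Eomes, Ccr7, Cd7 and Gzma had none in any of the 4 libraries.

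**Figure D2:**
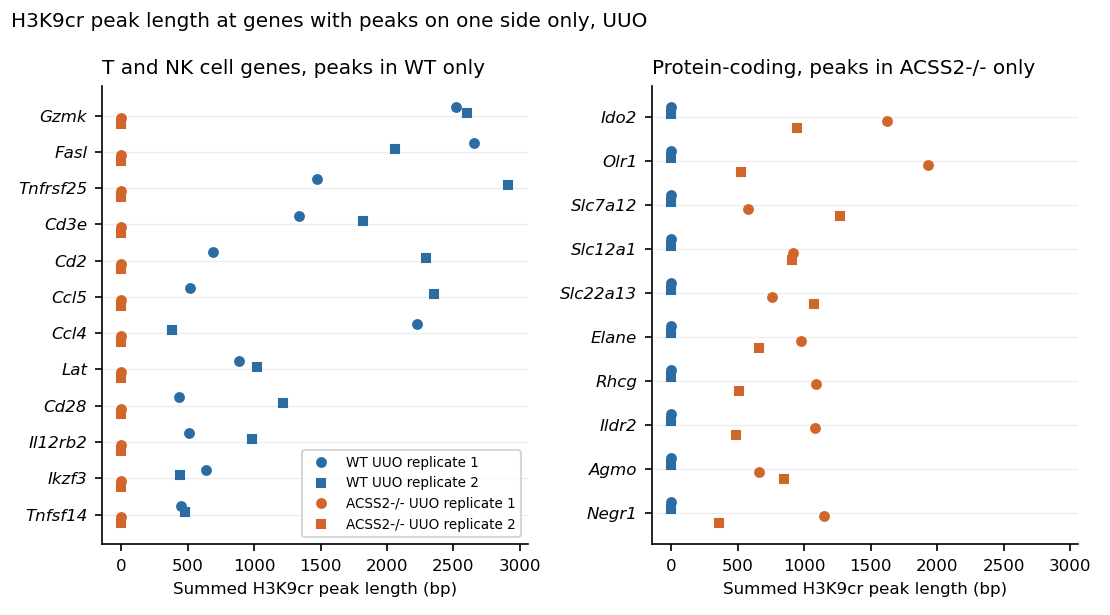
Summed H3K9cr peak length in base pairs within 3 kb of the gene ends in each of the 4 UUO libraries, for the 12 WT-only T and NK cell genes and the 10 ACSS2-/--only protein-coding genes with the longest peaks. The ACSS2-/- points of Fasl and Gzmk sit at 0 against 2057 to 2657 bp in WT.

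The T-cell receptor loci, which are rearranged in T cells, held further WT-only genes. Of 60 Traj segments, 36 and 29 had a peak in the WT libraries, 32 in ACSS2-/- replicate 1 and 0 in ACSS2-/- replicate 2. The summed peak length over segment windows was 40.05 and 48.2 kb in WT and 19.8 and 0 kb in ACSS2-/-. Replicate 1 of ACSS2-/- thus reached WT in segments marked but not in length, and 10 segments were WT-only. Of 51 Trb segments of the beta locus, 20 and 13 were marked in WT and 1 and 7 in ACSS2-/-, with 5 WT-only. Over all autosomal genes the WT-only share was 0.725%. Neighbouring windows share peaks, as at Traj19, Traj20 and Traj21 (815 and 768 bp each in WT). These segments are therefore not separate observations, and their counts do not measure an excess over that share. Immunoglobulin segments were almost bare in every library, with 2, 4, 2 and 0 of 208 Igh segments marked.

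For markers of other immune cells the genotypes overlapped. Of 16 B and plasma cell genes, 6 and 4 were marked in WT and 6 and 4 in ACSS2-/-, and none was a member. Of 40 macrophage and myeloid genes, 26 and 21 were marked in WT and 25 and 18 in ACSS2-/-, with overlapping ranges. Lyz2, the gene of lysozyme in myeloid cells, was WT-only with 1413 and 978 bp, and Elane, the gene of neutrophil elastase, was ACSS2-/--only with 980 and 657 bp. Of the 30 with any peak, 8 (26.7%) had less summed length in both ACSS2-/- libraries and 1 had more, and after scaling 6 and 2. The share with less was close to the background, which was 24.9% and 8.01% of protein-coding genes with a peak, and 14.8% and 19.8% after scaling. Outside the lists, Cd84 and Cd69, which encode surface receptors of leukocytes, were WT-only with peaks of 322 to 818 bp and of 355 and 313 bp.

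Upstream sequences are shown for 4 of the WT-only lymphocyte genes. They were chosen because the 250 bases before a RefSeq start lay at least partly under a peak in both WT libraries and under none in ACSS2-/-. The opposite pattern was found for 9 ACSS2-/--only genes. Sequences are shown for 2 of these, Agmo and Bmp8a, the only ones of the 9 with a motif match. All are RefSeq sequences of GRCm38.p6 on the strand of the gene, 5′ to 3′. The starts used for Tnfrsf25 and Cd3e lie inside the listed gene, so that their windows reach into it. Capitals mark bases that match a motif searched on both strands. Fasl lies on the minus strand with its window at chr1:161788496-161788745, Gzmk on the minus strand at chr13:113180966-113181215, Tnfrsf25 on the plus strand at chr4:152115684-152115933 and Cd3e on the minus strand at chr9:45009612-45009861. Agmo, which encodes an ether lipid monooxygenase, lies on the plus strand at chr12:37241389-37241638, and Bmp8a, a bone morphogenetic protein gene, on the minus strand at chr4:123343253-123343502.
Fasl: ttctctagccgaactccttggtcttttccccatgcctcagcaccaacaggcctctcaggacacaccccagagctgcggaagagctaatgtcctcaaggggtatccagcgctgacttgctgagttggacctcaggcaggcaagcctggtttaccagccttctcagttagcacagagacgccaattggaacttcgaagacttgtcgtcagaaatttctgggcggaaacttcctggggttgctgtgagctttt
Gzmk: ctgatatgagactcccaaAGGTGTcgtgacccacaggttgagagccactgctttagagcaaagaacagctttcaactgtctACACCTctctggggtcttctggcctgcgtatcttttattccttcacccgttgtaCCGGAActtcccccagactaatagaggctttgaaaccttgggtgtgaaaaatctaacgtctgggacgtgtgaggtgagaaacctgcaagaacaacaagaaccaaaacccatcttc
Tnfrsf25: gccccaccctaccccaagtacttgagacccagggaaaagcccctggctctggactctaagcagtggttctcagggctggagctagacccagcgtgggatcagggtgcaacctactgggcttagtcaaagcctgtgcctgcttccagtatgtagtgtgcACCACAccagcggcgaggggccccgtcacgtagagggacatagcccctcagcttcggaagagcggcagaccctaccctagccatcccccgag
Cd3e: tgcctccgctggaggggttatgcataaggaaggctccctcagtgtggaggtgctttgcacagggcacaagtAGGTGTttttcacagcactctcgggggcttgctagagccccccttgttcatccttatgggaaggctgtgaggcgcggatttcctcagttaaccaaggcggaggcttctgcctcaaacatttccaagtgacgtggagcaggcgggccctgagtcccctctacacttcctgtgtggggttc
Agmo: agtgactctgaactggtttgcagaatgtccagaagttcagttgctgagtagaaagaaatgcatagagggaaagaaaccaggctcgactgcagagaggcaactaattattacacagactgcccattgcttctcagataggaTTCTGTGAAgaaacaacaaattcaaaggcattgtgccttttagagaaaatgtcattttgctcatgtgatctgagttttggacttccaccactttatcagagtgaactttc
Bmp8a: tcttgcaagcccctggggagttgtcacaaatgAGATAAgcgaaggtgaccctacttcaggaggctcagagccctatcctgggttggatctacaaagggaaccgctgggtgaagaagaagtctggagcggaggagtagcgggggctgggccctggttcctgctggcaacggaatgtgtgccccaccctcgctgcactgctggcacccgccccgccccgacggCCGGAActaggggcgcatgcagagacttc

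The capitals in Gzmk are matches to the ETS letters CCGGAA and the T-box letters AGGTGT, that in Tnfrsf25 to the RUNX letters TGTGGT and that in Cd3e to the T-box letters. Agmo holds a match to the STAT letters TTCNNNGAA, and Bmp8a holds one to ETS and one to the GATA letters AGATAA. No searched motif was found in the Fasl window. The AP-1 letters TGANTCA, the CTCF letters CCACNAGG, the HNF4 letters CAAAGTCCA and the NF-kB letters GGGACTTTC were also searched, and RUNX and T-box matches can overlap. A match is a run of letters and was not tested as a binding site.

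Among promoters of the T and NK list, RUNX letters were found in 15 of 39 windows (38.5%), against 14.1% of 23899 RefSeq promoters. T-box letters stood in 25.6% of them against 12.2%, and CTCF letters in 17.9% against 4.31%. The list holds genes known to be controlled in lymphocytes, so these shares describe the list and not its response. Over the WT-only genes the shares were close to those of all promoters, with RUNX letters in 16.9% and T-box letters in 16.4% of 195 matched windows. Over 84 matched ACSS2-/--only windows they were 16.7% and 14.3%. Promoters marked in all 4 libraries had a median GC content of 59.6%, against 51.2% for WT-only, 51.4% for ACSS2-/--only and 52.4% for all promoters. The upstream window itself lay under a peak in both own libraries for 38 WT-only genes (19.5%) and 9 ACSS2-/--only genes (10.7%), against 72.0% of genes marked in all 4 libraries.

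Genes marked in ACSS2-/- only were few on the nephron lists. They were 1 of 41 proximal tubule genes (Dao) and 1 of 38 distal nephron and collecting duct genes (Slc12a1), beside 0.295% of protein-coding genes, and other transporter and enzyme genes below were picked after their values were seen. Slc12a1, the gene of the loop of Henle cotransporter NKCC2, had peaks of 919 and 912 bp in the ACSS2-/- libraries and none in WT. Slc22a13, an organic anion transporter gene, had 759 and 1072 bp, and Rhcg, which encodes an ammonia channel of the collecting duct, had 1090 and 513 bp. Egf, whose product is made in the thick ascending limb and distal tubule, had 902 and 534 bp. Dao, the gene of the peroxisomal D-amino acid oxidase of the proximal tubule, had 415 and 347 bp.

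The longest ACSS2-/--only peaks at protein-coding genes were those of Ido2, a tryptophan-degrading enzyme gene (1620 and 950 bp), Olr1, which encodes a receptor for oxidised LDL (1932 and 523 bp), and the amino acid transporter gene Slc7a12 (581 and 1268 bp). Agmo (664 and 852 bp), Ildr2 (1082 and 489 bp) and Negr1 (1147 and 361 bp) completed the first 10 with the genes named above. Further enzyme genes on the list, picked after their values were seen, were Dio1, a deiodinase gene (942 and 349 bp), Cyp4a31 (618 and 692 bp), Gsta2 (415 and 465 bp) and Hsd3b2 (572 and 363 bp). None of these 4 had a peak in a WT UUO library.

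Of 41 proximal tubule genes, 29 and 19 were marked in WT and 34 and 28 in ACSS2-/-. The genotypes overlapped, since ACSS2-/- replicate 2 lay below WT replicate 1. Of the 37 with any peak, 8 had more summed length in both ACSS2-/- libraries than in either WT library and 2 had less, beside 8.01% and 24.9%. After scaling the counts were 10 and 1, beside 19.8% and 14.8%. Hnf4a, the gene of a tubular transcription factor, had 0 and 646 bp in WT and 1308 and 733 bp in ACSS2-/-. Slc34a1, the main phosphate cotransporter gene of this segment, had 597 and 0 bp against 1326 and 1388 bp. At Pck1, which encodes a gluconeogenic enzyme, peaks summed to 3598 and 2372 bp in WT and to 5105 and 6175 bp in ACSS2-/-. WT replicate 2 had no peak at Slc34a1, Slc13a3, Slc22a6 or Aqp1, and the order of the genotypes at these genes rested in part on that 0. The T and NK list went the other way in the same 4 libraries, and its part in these counts was not tested.

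Distal nephron and collecting duct genes gave the opposite order. Of 38, 24 were marked in each WT library and 26 and 22 in ACSS2-/-. Of the 29 with any peak, 12 (41.4%) had less summed length in both ACSS2-/- libraries and 1 had more, and after scaling 9 (31.0%) and 4. These stand beside 24.9% and 8.01% of protein-coding genes with a peak, and 14.8% and 19.8% after scaling. Trpv5, a calcium channel gene, was WT-only with 347 and 479 bp, as was Kcne1, a potassium channel subunit gene, with 355 and 313 bp, and Slc12a1 was ACSS2-/--only. Of 30 genes of injured tubules 28 were marked in each WT library and 27 and 24 in ACSS2-/-, with Krt20, a keratin gene, as a WT-only member (946 and 640 bp). Podocyte genes gave no member among 16.

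Most genes of inflammatory signalling had a peak in every library. For the counts before scaling, the background was 24.9% with less and 8.01% with more of protein-coding genes with a peak. All 26 AP-1 and NF-kB genes had a peak. Of these, 14 had less summed peak length in both ACSS2-/- libraries than in either WT library and 0 had more. After scaling 9 had less and 3 had more, beside 14.8% and 19.8%. At the 20 shared single-peak regions of this list, 4 were shorter and 5 longer in both ACSS2-/- libraries after centring, so that the order of the summed lengths was not seen there. Junb, which encodes an AP-1 subunit, had 12500 and 12276 bp in WT and 8125 and 7920 bp in ACSS2-/-. Of 41 interferon and antigen presentation genes with any peak, 18 had less and 0 had more, and after scaling 14 and 5, beside the same backgrounds. Of the 31 shared regions of this list 7 were shorter and 3 longer. Nlrc5, an activator of MHC class I genes, had 3122 and 3125 bp in WT and 1515 and 1313 bp in ACSS2-/-. Neither of these lists held a member.

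Of 23 genes of IL-1 and the inflammasome with any peak, 7 had less length and 0 had more, beside 24.9% and 8.01%, and after scaling 5 and 3. Of their 11 shared regions 1 was shorter and 2 were longer. Casp1, the protease gene of the inflammasome, had 2289 and 2271 bp in WT and 1376 and 0 bp in ACSS2-/-, and Il1rl1, the IL-33 receptor gene, had 2284 and 2132 bp against 787 and 414 bp. For Il1b itself the values were 390 and 513 bp in WT and 2153 and 0 bp in ACSS2-/-, so that the genotypes overlapped and the ACSS2-/- replicates lay at opposite ends. At Il1r1, the IL-1 receptor gene, they were 565 and 1334 bp against 1774 and 1269 bp, again overlapping.

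Of 49 stroma and matrix genes 43 were marked in each WT library and 45 and 35 in ACSS2-/-. Of the 47 with any peak, 17 (36.2%) had less length and 4 had more, and after scaling 16 (34.0%) and 7. For this and the following lists the background was 24.9% and 8.01% of protein-coding genes with a peak, and 14.8% and 19.8% after scaling. Among 20 complement genes with a peak 2 had less and 0 more in both scalings, of which C1qa, made by macrophages, had 9547 and 7756 bp in WT and 4588 and 1402 bp in ACSS2-/-. Endothelial genes gave 6 of 23 (26.1%) with less, close to the background, and 1 with more (5 and 1 scaled). Tie1, an endothelial receptor gene, was WT-only at 365 and 378 bp. Fatty acid genes turned from 9 with less and 2 with more to 4 and 6 after scaling, of 34, and histone acylation genes from 6 and 0 to 4 and 9, of 34. Senescence genes gave 8 and 1, and 5 and 3 scaled, of 25. These last 3 lists held no member.

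**Figure D3:**
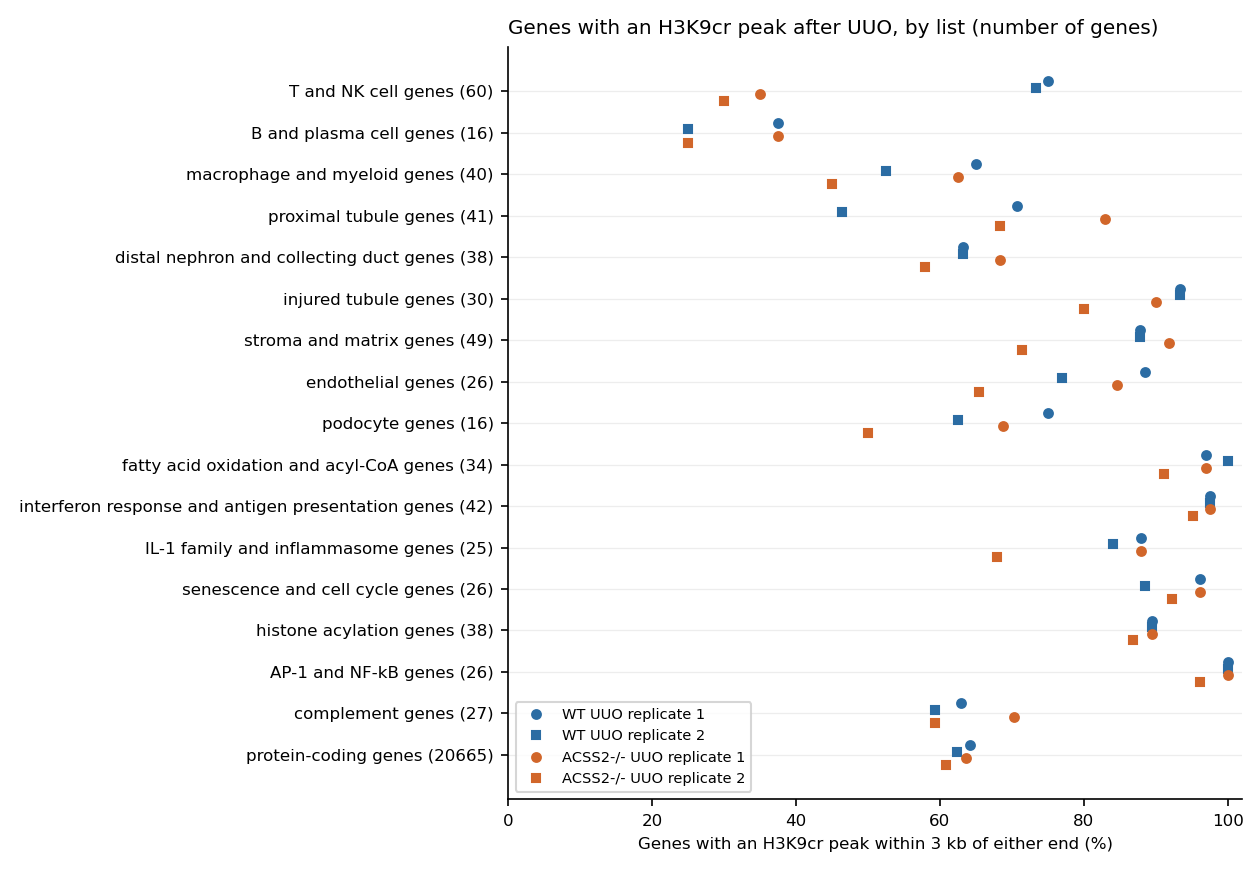
Genes with an H3K9cr peak within 3 kb of a gene end in each UUO library, as a percentage of each gene list and of all protein-coding genes, with the number of genes in brackets. T and NK cell genes separated the genotypes, with 45 and 44 of 60 in WT and 21 and 18 in ACSS2-/-.

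Acss2 was marked at its gene ends in all 4 libraries, with 1069 and 1589 bp in WT and 799 and 1583 bp in ACSS2-/-. A peak near a gene end does not show whether the deleted part of the gene is present, so this does not check the genotype. Inside Acss2, however, a WT-only region was listed at chr2:155538614-155539150 of mm10, 20571 bp from the nearest end of the gene, with peaks of 537 and 334 bp in WT and none in ACSS2-/-. The same region had H3K9cr peaks of 506, 455, 1583 and 351 bp in the 4 control kidneys, ACSS2-/- included.

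Among families defined by the start of the gene symbol, members were few, and their shares stand beside the 0.644% and 0.295% of protein-coding genes. Of 98 Cd genes 65 were marked in each WT library and 53 and 47 in ACSS2-/-, and 5 were WT-only. Of 376 Slc transporter genes, 257 and 247 were marked in WT and 261 and 249 in ACSS2-/-, with 3 members (0.798%) in each direction, close to the background in WT. The WT-only ones were Slc2a4, the insulin-responsive glucose transporter gene (864 and 920 bp), Slco4c1 (565 and 483 bp) and Slc9c1 (541 and 639 bp), and the ACSS2-/--only ones were Slc12a1, Slc7a12 and Slc22a13. Of 92 Kcn potassium channel genes 5 were WT-only (Kcnmb1, Kcne1, Kcnj6, Kcnk12 and Kcnk7) and 1, Kcnip2, was ACSS2-/--only, of 53 keratin genes 3 were WT-only (Krt20, Krt83 and Krt77), and of 25 Ccl chemokine genes 2 were. Of 10 granzyme genes 4 and 1 were marked in WT and 0 in both ACSS2-/- libraries. Zinc finger genes, with 329, 326, 330 and 321 of 388 marked, and H2 genes, with 20 of 38 in each library, did not separate the genotypes in number marked. Summed length at H2 genes was 63.3 and 55.1 kb in WT against 51.4 and 39.2 kb in ACSS2-/-. Of the 38, 11 (28.9%) had less in both ACSS2-/- libraries and 0 more, beside 16.8% and 5.40% of protein-coding genes. Scaling to the same total was not done for families.

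The remaining leading WT-only genes were of mixed kind. Tmem268, a membrane protein gene, had 3436 and 3614 bp. Prm3, a protamine family gene of spermatids, had 5956 and 552 bp, most of it in replicate 1. Ms4a4b, expressed in T cells, had 3160 and 575 bp, Myb, the progenitor transcription factor gene, 2025 and 1338 bp, and Myo1f, a leukocyte myosin gene, 1872 and 1132 bp. Of the 341 WT-only genes 133 were protein-coding and 137 long non-coding, and of the 142 ACSS2-/--only genes 61 and 56 were. Several genes often shared a peak, as the WT-only genes rested on 240 regions and the ACSS2-/--only genes on 90.

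Away from gene ends, some WT-only regions had a gene of the T and NK list as the nearest gene. Of the 133 distal regions whose nearest gene was on the T and NK list, 69 and 82 had a peak in WT and 50 and 29 in ACSS2-/-. As shares these were 51.9% and 61.7% against 37.6% and 21.8%, while over all distal regions they were 58.8% and 40.3% against 53.2% and 33.5%. WT-only regions were 17 of the 133 and ACSS2-/--only regions 1, which lay near Skap1, beside 4.58% and 2.19% of all distal regions. The 17 included 3 whose nearest gene was Tigit, an inhibitory receptor gene, at 86064, 48741 and 43607 bp. For 2 it was Gzmb, at 33409 and 41274 bp. For 1 it was Cd247, the zeta chain of the receptor complex, at 8762 bp, with peaks of 769 and 2211 bp. Gzmb and Icos, with few or no peaks at their ends, were thus the nearest gene of distal WT-only regions. Which gene such a region acts on was not tested. Of 69 distal regions near AP-1 and NF-kB genes 7 were WT-only and 0 ACSS2-/--only. Near fatty acid and acyl-CoA genes 8 of 73 were WT-only and 4 ACSS2-/--only, and near proximal tubule genes 3 and 1 of 99. A WT-only share above that of all distal regions was thus not limited to the T and NK list.

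The longest distal WT-only peaks were those near P2rx7, which encodes an ATP-gated channel of immune cells, at chr5:122652211-122654691 (2117 and 1560 bp), near 4933427D14Rik at chr11:72144068-72146898 (2483 and 1281 bp) and near Naif1 at chr2:32491988-32494232 (1501 and 2137 bp). Next came that near P2ry14, a nucleotide sugar receptor gene, at chr3:59119232-59121277 (2046 and 1576 bp). One near the chemokine gene Ccl3, at chr11:83638973-83641014, had 1979 and 1634 bp and lay 6828 bp from the gene. None of the 5 had a peak in ACSS2-/-. In the other direction the longest lay near Oxa1l at chr14:54381148-54383426 (1091 and 2279 bp in ACSS2-/-), Clic4 at chr4:135244150-135246342 (1404 and 1743 bp), Tbc1d14 at chr5:36566697-36568976 (1065 and 1876 bp), Rbpms at chr8:33817938-33819720 (1535 and 1356 bp) and Spsb4 at chr9:96957280-96959238 (1256 and 1627 bp).

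Runs of members at most 50 kb apart were also found. The longest WT-only runs held 5 regions each. They lay at Ets1, a lymphoid and endothelial transcription factor gene, at chr9:32900702-32933138, at the GTPase genes Gimap6, Gimap7 and Gimap9 of lymphocytes at chr6:48679481-48724372, at Ncf1, a subunit gene of the phagocyte NADPH oxidase, and Gtf2i at chr5:134227086-134275977, and in the Traj segments beside Dad1 at chr14:54198001-54219115. A run of 4 spanned Fasl and Suco at chr1:161767043-161809699. The longest ACSS2-/--only run had 4 regions at Spsb4, chr9:96957280-96984210. It was followed by runs of 3 at Adap1, Cox19 and Gpr146, chr5:139331439-139375977, at Ctcfl and Pck1, chr2:173128161-173152556, at Slc45a4, chr15:73614873-73629998, and at Mat2a and Sh2d6, chr6:72465233-72478200. Most members stood alone, with 1345 WT-only and 743 ACSS2-/--only regions outside any run.

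The peak lists of the control kidneys, which the choice of members did not use, differed between the directions. Of the ACSS2-/--only regions, 52.5% and 56.4% had an H3K9cr peak in the control WT libraries and 71.2% and 60.2% in the control ACSS2-/- libraries. Of the WT-only regions, 28.6% and 33.7% had one in control WT and 45.4% and 35.1% in control ACSS2-/-. No control H3K9cr library had a peak at 832 WT-only regions (42.9%), at 177 ACSS2-/--only regions and at 373 regions marked in all 4 UUO libraries (2.18%). Over all regions, 48.8% and 51.9% had a peak in control WT and 61.5% and 53.3% in control ACSS2-/-. Regions marked in all 4 UUO libraries, of which 91.7% to 96.1% had one, raise these shares. The lower WT-only shares therefore do not show an unusual absence from control kidneys. The ACSS2-/--only shares lay above those over all regions in each control H3K9cr library. In each of the 4 control libraries the share of ACSS2-/--only regions was above that of WT-only regions.

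At genes, all 12 WT-only T and NK genes lacked a peak in every control H3K9cr library. Most genes of that list did, as 12 and 11 of the 60 were marked in control WT and 14 and 9 in control ACSS2-/-. The 21 and 18 marked in obstructed ACSS2-/- kidneys lay above these counts. Of protein-coding members, 6 of the 61 ACSS2-/--only genes (9.84%) and 47 of the 133 WT-only ones (35.3%) lacked a peak in every control H3K9cr library. A peak in all 4 control libraries was found for 28 of the 61 (45.9%) and 18 of the 133 (13.5%). Egf had 4290 and 5121 bp in control WT, 5694 and 5377 bp in control ACSS2-/-, none in obstructed WT and 902 and 534 bp in obstructed ACSS2-/-. Dio1 had 1520 and 1311 bp and 4004 and 5112 bp in the control kidneys. Control WT kidneys had peaks of 2139 and 629 bp at Slc12a1, and control ACSS2-/- kidneys had 4076 and 1137 bp. Among the 41 proximal tubule genes, 35 and 39 were marked in control WT and 40 and 36 in control ACSS2-/-.

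**Figure D4:**
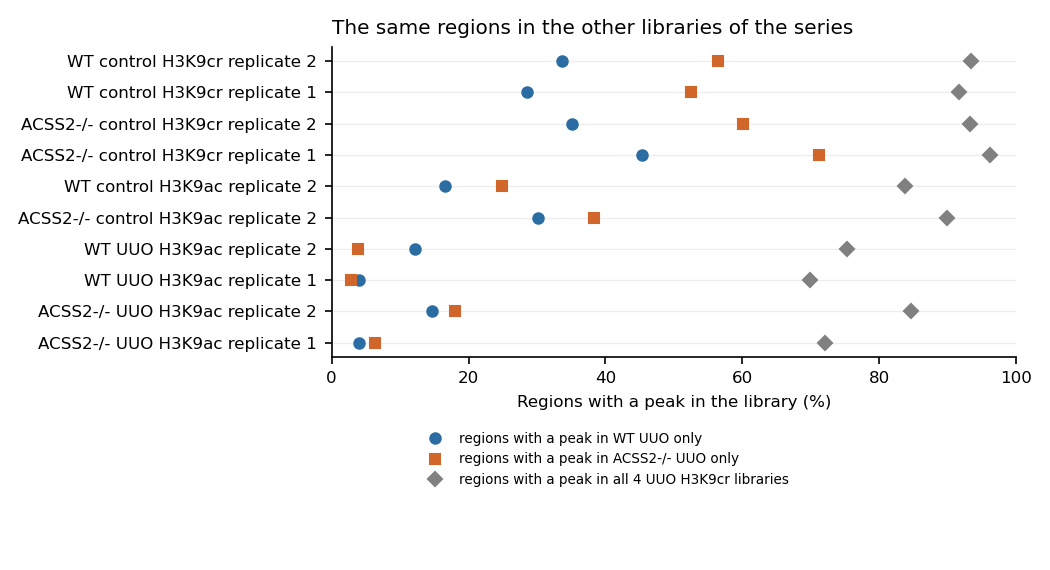
Percentage of WT-only, ACSS2-/--only and all-4-library H3K9cr regions of the UUO kidneys that had a peak in each other library of the series. In the control H3K9cr libraries the ACSS2-/--only regions reached 52.5% to 71.2% and the WT-only regions 28.6% to 45.4%.

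The UUO H3K9ac libraries gave few peaks at members, and also few at other regions not marked in all 4 H3K9cr libraries. Of the WT-only regions 4.02% and 12.1% had an H3K9ac peak in WT UUO kidneys and 3.97% and 14.6% in ACSS2-/- UUO kidneys, so that the genotypes overlapped. Of the ACSS2-/--only regions 2.82% and 3.84% had one in WT and 6.32% and 18.1% in ACSS2-/-. Over all regions the shares were 25.3% and 28.9% in WT and 26.8% and 37.0% in ACSS2-/-, most of them at regions marked in all 4 libraries. No UUO H3K9ac peak lay at 1480 WT-only regions (76.3%) and 691 ACSS2-/--only regions (78.0%), against 12.1% of regions marked in all 4 libraries. The same pattern of presence, both of 1 genotype and neither of the other, was rare in H3K9ac. Among WT-only regions 5 had H3K9ac in WT only and 15 in ACSS2-/- only, and among ACSS2-/--only regions 1 and 18. At regions marked in all 4 libraries the counts were 43 and 389. H3K9ac peaks at Fasl summed to 677 and 1983 bp in WT and to 0 in both ACSS2-/- libraries, while at Cd3e they summed to 0 and 1070 bp against 561 and 864 bp. Of the 60 T and NK genes 10 and 35 had an H3K9ac peak in WT UUO and 12 and 25 in ACSS2-/- UUO, with replicates further apart than genotypes.

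Peak length was compared at the 13160 regions where each of the 4 libraries had exactly a single peak. The median length was 1461 and 1294 bp in WT and 1362 and 1177.5 bp in ACSS2-/-, a log2 difference of -0.12 that was within the spread between replicates (exact permutation test, two-sided, p = 0.67). At the 3079 distal regions among them the medians were 1144 and 924 bp against 1023 and 771 bp (log2 difference -0.21). At the 10081 regions near gene ends they were 1550 and 1403 bp against 1459 and 1289 bp (log2 difference -0.10). After each library was centred on its own median, 2241 regions (17.0%) were shorter in both ACSS2-/- libraries than in either WT library and 2603 (19.8%) were longer. Of the distal regions 20.5% were shorter and 17.1% longer, and of those near gene ends 16.0% and 20.6%.

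No single shared region passed the test. In limma on centred log2 lengths, 0 of 13160 regions (0.00%) were shorter and 0 (0.00%) longer at a Benjamini-Hochberg adjusted p under 0.05, with 514 and 414 at an unadjusted p under 0.05 and a lowest adjusted p of 0.465. Without centring, which moved the median difference over regions to -0.10, limma again called 0 in each direction. The region with the smallest p in the shorter direction lay near Ifngr1, the interferon gamma receptor gene, at chr10:19577273-19578974, with 1702 and 1660 bp in WT and 379 and 375 bp in ACSS2-/- (log2 difference -2.04, SE 0.20). It was followed among others by regions near Csf2rb, a shared cytokine receptor subunit gene (1339 and 1389 bp against 404 and 322 bp), and Itgb2, the leukocyte integrin beta chain gene (1565 and 1461 bp against 468 and 333 bp). In the longer direction stood regions near Tmem51 (625 and 526 bp against 1950 and 1644 bp), Ccna2, the cyclin A2 gene (709 and 565 bp against 2086 and 1664 bp), and Auh (343 and 331 bp against 2532 and 1285 bp). The limma adjusted p of each of these was 0.465, so that with 2 libraries in each group none is distinguished from the spread.

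**Figure D5:**
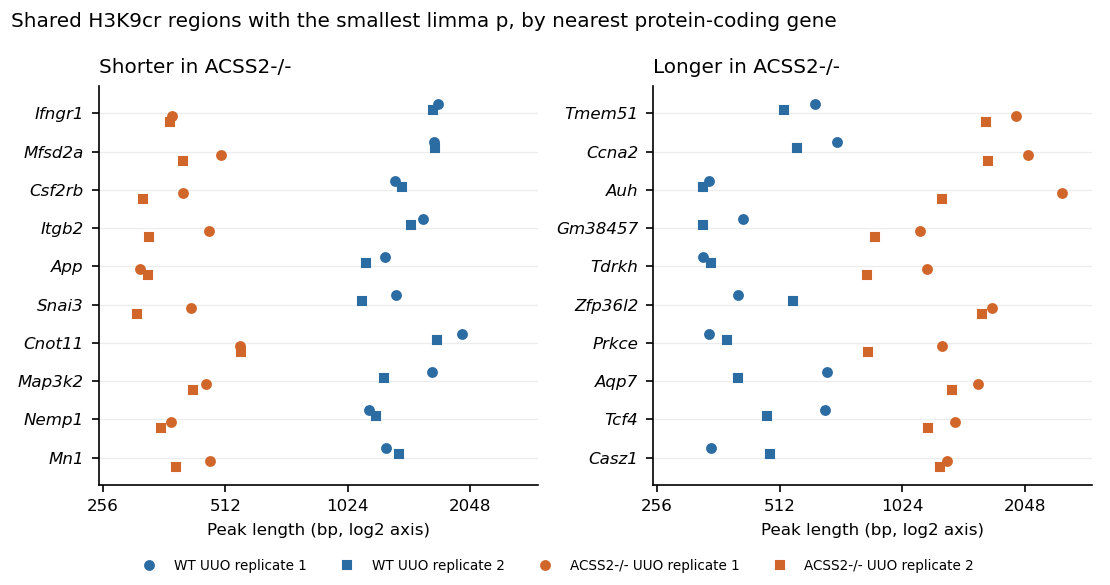
Peak length in base pairs, on a log2 axis, in each of the 4 UUO libraries at the 10 shared regions in each direction with the smallest limma p, named by the nearest protein-coding gene. The regions were chosen for their difference, and the limma adjusted p of each was 0.465.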

How the data were processed

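Whole kidneys were assayed by ChIP-seq in 14 libraries, 4 of which enter the comparison. Per the methods and the submitters' processing notes, the authors aligned reads with Bowtie2 to mm10, removed duplicates, organelle reads and reads of low mapping quality, called peaks with MACS2 at a q-value under 0.05 and annotated them with ChIPseeker. The deposited files hold peak positions only, with no score, signal or count, so no read-based test could be run and depth is not given in the sources used here. Reads were not counted again, and 0 columns of per-sample values were left unused.

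Autosomal peaks of the 4 libraries were merged where they shared at least 1 bp, and presence was a peak of at least 1 bp within a region. RefSeq gene positions were those of GRCm38, the assembly of mm10. A gene was marked where a peak lay within 3 kb of either end, since the gene table gives no strand for many genes. Regions further than 3 kb from every end were distal. Groups came from the sample labels. Peak length was compared with limma (3.58.1, R 4.3.3) on log2 lengths centred on each library's median, with Benjamini-Hochberg adjustment, and library values by exact permutation tests. Interval code (Python 3.11.15, bedtools 2.31.1) and the limma step were tested on simulated data. The 16 gene lists, the 38 symbol families and the members were chosen with earlier results of these data known, so no list was tested. Named are Acss2, Il1b and Il1r1, the 10 protein-coding genes in each direction with the longest peaks, members of the lists and families, the 5 longest distal regions, the 5 largest runs and the 10 shared regions with the smallest limma p in each direction. Further genes serve as examples and were picked after their values were seen. Sequences came from RefSeq promoters, and 195 of 341 WT-only and 84 of 142 ACSS2-/--only genes were matched.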

Additional observations from a re-analysis of the deposited data

Results flagged for a closer look

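In the UUO H3K9ac libraries, outside the H3K9cr comparison, the number of T and NK cell genes marked differed more between replicates than between genotypes. In WT UUO H3K9ac replicate 2, 35 of the 60 genes had a peak, and in ACSS2-/- UUO H3K9ac replicate 2, 25 had a peak. The control H3K9ac libraries had peaks at 10 and 13 of them, and the other UUO H3K9ac libraries at 10 and 12. Of all 47042 genes, 14660 and 15595 had an H3K9ac peak in WT UUO and 15035 and 17271 in ACSS2-/- UUO. On the Y chromosome, which the comparison did not use, ACSS2-/- UUO H3K9cr replicate 1 had 14 peaks and ACSS2-/- UUO H3K9ac replicate 2 had 13, against at most 5 in the control libraries. The peak names of both carry the number 3. ACSS2-/- UUO H3K9cr replicate 2 had 0.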

How the results depend on the processing

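Counts are limited by presence calls near the shortest listed peaks and by 2 libraries in each group. The T and NK alternatives were chosen after the data were seen. Distal regions over 10 kb from gene ends and outside genes numbered 245 in WT only and 111 in ACSS2-/- only. With the gene start alone, over genes of known strand only, 198 and 87 genes and 7 T and NK genes were called. Of the 341 WT-only genes 209 had a known strand, so the lower counts do not come from the start rule alone. With protein-coding genes alone 133 and 61 genes were called. Leaving out each library in turn, which makes the rule on its side rest on the other library, gave 2606 to 10235 WT-only and 1310 to 8349 ACSS2-/--only regions. Of these 1689 to 7245 and 850 to 5823 were distal. It gave 502 to 1157 and 273 to 841 genes, and 17 to 21 T and NK genes (17 without ACSS2-/- replicate 2, 21 without ACSS2-/- replicate 1). The longest 27023 peaks of each library, an overlap of 50%, gaps of 1 kb and a 1 kb window moved no count by over 1.5 times. The log2 ratio of covered length stayed between -0.25 and -0.17, and that of length at shared regions between -0.22 and -0.01. The difference of replicate 1 from 2 in centred length had a correlation of 0.02 between genotypes over 13160 regions. Because lengths were centred, this cannot show whether libraries of the same replicate number shared a batch or depth, which was not tested. With the replicate block limma called 0 regions in each direction, as it did in every other setting run.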
